A study of Rattus norvegicus with 12 samples.

Results

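The genes described here encode collagens, laminins, matrix metalloproteinases and the tissue inhibitors of metalloproteinases (TIMPs). They were chosen by the gene names printed for the array's probes: 74 genes had such a name, on 96 probes. Of these, 37 genes, with 44 probes, had a probe that the scanning software flagged as a found spot (flag 100) on 6 or more of the 12 arrays, and these were tested among 10439 genes in all. They comprised 7 of 11 fibrillar collagens, 5 of 7 basement membrane collagens, 6 of 8 laminins, 9 of 21 other collagens, 6 of 22 metalloproteinases and 4 of 4 TIMPs. The remaining name, Col4a3bp, is that of the ceramide transporter Cert1, which is not a matrix gene and was not tested.

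The extracellular matrix of the gut wall is built around collagens. Fibrillar collagens such as types I, III and V form the tensile fibres of the submucosa and lamina propria. Basement membranes, the thin sheets beneath epithelium and around vessels, muscle cells and fat cells, are instead made of type IV collagen, laminins and the associated collagens XV and XVIII. Metalloproteinases cut these proteins and TIMPs block the metalloproteinases.

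RNA labelled as colonic epithelium came from male Wistar rats that weighed 180 to 200.0 g and then ate a normal-protein or a high-protein diet for 6 weeks. Each diet had 6 samples, each on 1 array, named NP1 to NP6 for normal protein and HP1 to HP6 for high protein. Neither group carries a transgene or a further treatment in the labels, and whether each sample is 1 animal is not stated, so p-values measure the spread between these samples. The question was whether dietary protein alters gene expression in the colon. Values are log2 spot intensities after background correction and quantile normalization. Levels of different genes come from different probes and are not compared with each other.

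The arrays lay on 3 slides of 4, and between 42.7% and 55.9% of the gene spots of an array were flagged as found. All 13 listed epithelial markers were tested, with a mean level of 11.33 to 12.25 on the 12 arrays. The smooth muscle list was also detected (19 of 21 genes tested, mean level 10.30 to 11.57), so the RNA was not that of epithelium alone. In bulk RNA, fewer cells of a type and less RNA per cell cannot be told apart. The arrays also differed in Hox genes that mark position along the colon: Hoxb13, a gene of the distal colon, lay between 5.83 and 12.56. A position score, taken as Hoxb13 less the average of the proximal genes Hoxb6 and Hoxb7, was between 4.87 and 5.57 on 6 arrays (NP1, NP2, HP1, HP2, HP5 and HP6) and 2.40 or less on the others, with the lowest scores in HP3 (-4.72), NP6 (-4.44) and HP4 (-3.15). NP6 stood apart in another way: 6 of the adipocyte markers were tested, and their mean level was 12.86 there against 7.47 to 9.17 on the other 11 arrays. That list was added after the values had been seen. Of 2 further adipocyte markers, Plin1 and Lep, no spot was flagged as found on any array.

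Detection separated the families before any comparison. All 4 TIMPs, but only Mmp2, Mmp10, Mmp14, Mmp15, Mmp17 and Mmp23 of the metalloproteinases, passed the filter; Mmp2 is gelatinase A, Mmp10 is stromelysin 2, and Mmp14, Mmp15 and Mmp17 are anchored to the cell membrane. No spot of Mmp3, Mmp7, Mmp8, Mmp9, Mmp12 or Mmp13, which include matrilysin, gelatinase B and 2 collagenases, was flagged as found on any array. In all, 32 of the 37 untested genes had no such spot on any array. The rest were Col17a1, found on 4 arrays, and Col9a2, Col10a1, Col11a1 and Cert1, each found on only 1, all short of the limit of 6. Just inside it were Col20a1, found on 6 arrays, and Col11a2 and Timp3, each found on 7. The untested genes have no level here.

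**Figure D1:**
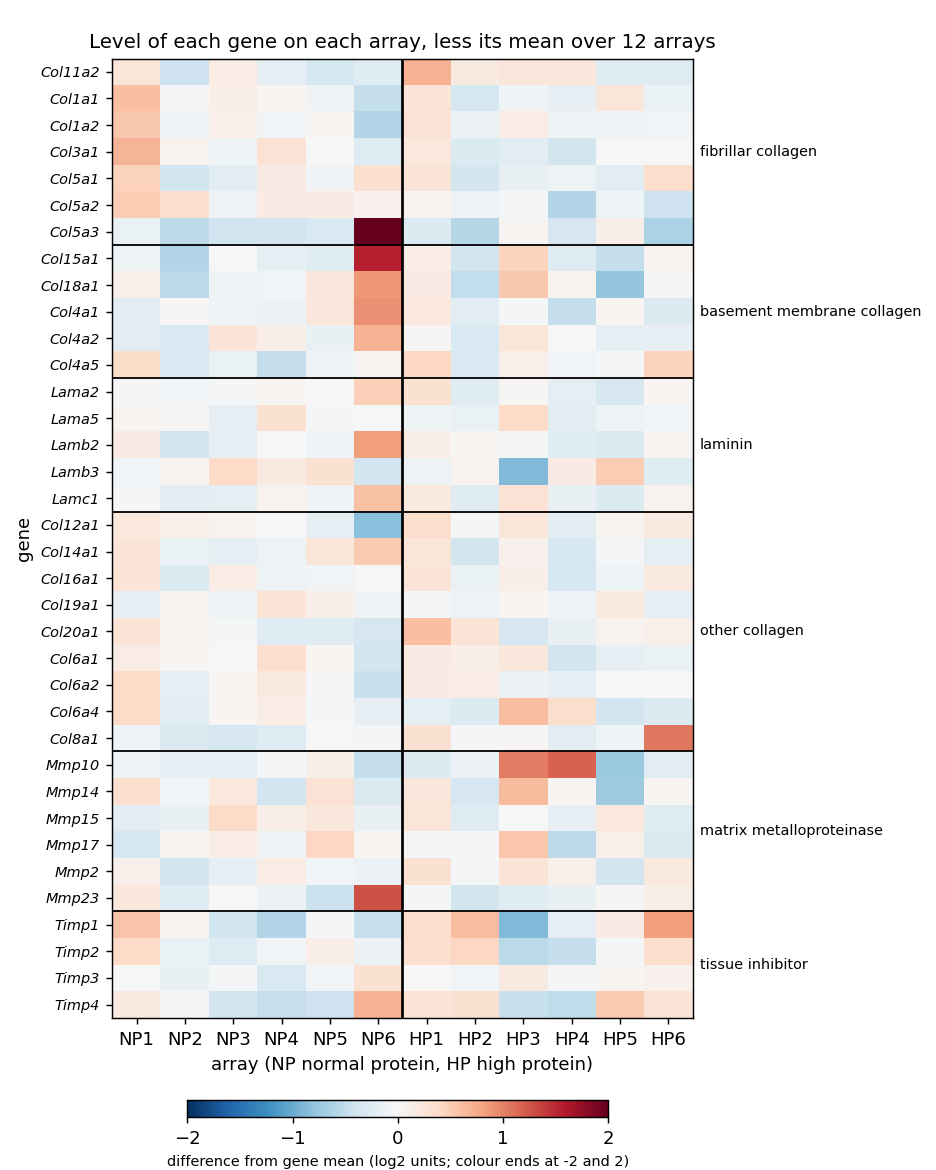
Each row is 1 of 36 of the 37 tested genes and each column 1 array; colour gives the gene's normalized log2 intensity less its own mean over the 12 arrays, and the colour scale ends at -2 and 2. Col5a3 (11.39) and Col15a1 (11.80) in NP6 are the darkest red cells, Mmp10 is red in HP3 and HP4, and the type I and III collagens are red in NP1.

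The genes varied across the 12 arrays with a median SD of 0.30 per gene, against 0.20 over all tested genes. Much of the pattern followed single arrays. NP6 held the highest value of 12 of the 37 genes (32.4%, against 14.7% of all tested genes), and of 7 of the 11 basement membrane genes (63.6%). NP1 held the highest value of 5 of the 7 fibrillar collagens (71.4%, against 6.15% of all tested genes): Col1a1, Col1a2, Col3a1, Col5a1 and Col5a2. These counts were made after the values had been seen and are descriptions.

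Between the diets, none of the 37 genes passed the threshold, an adjusted p of 0.05 (limma with Benjamini-Hochberg adjustment over all 10439 genes; 0% of all tested genes were called, and limma with a variance trend and robust fit also called 0). At an unadjusted p under 0.05 there was 1 of the 37 genes, Col5a2, against 692 of all tested genes (6.63%); in the direction of Col5a2, lower for high protein, it was 2.96% of all tested genes. The 2 diet groups overlapped in each of the 37 genes; among all tested genes, 40 (0.383%) had groups that did not overlap. The difference, high minus normal protein, was below 0 in 22 genes and above 0 in 15, with a median of -0.05 on the log2 scale, against 0.01 over all tested genes, of which 48.5% lay below 0. Without NP6 it was below 0 in 20 and above 0 in 17, with a median of -0.02. With the arrays scaled to their 75th percentile the median of the 37 genes was -0.04 against -0.03 over all tested genes, of which 57.3% lay below 0. For 25 of the 37 genes (67.6%) the 95% confidence interval excluded a change of 1.5-fold or more in either direction, against 84.7% of all tested genes.

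**Figure D2:**
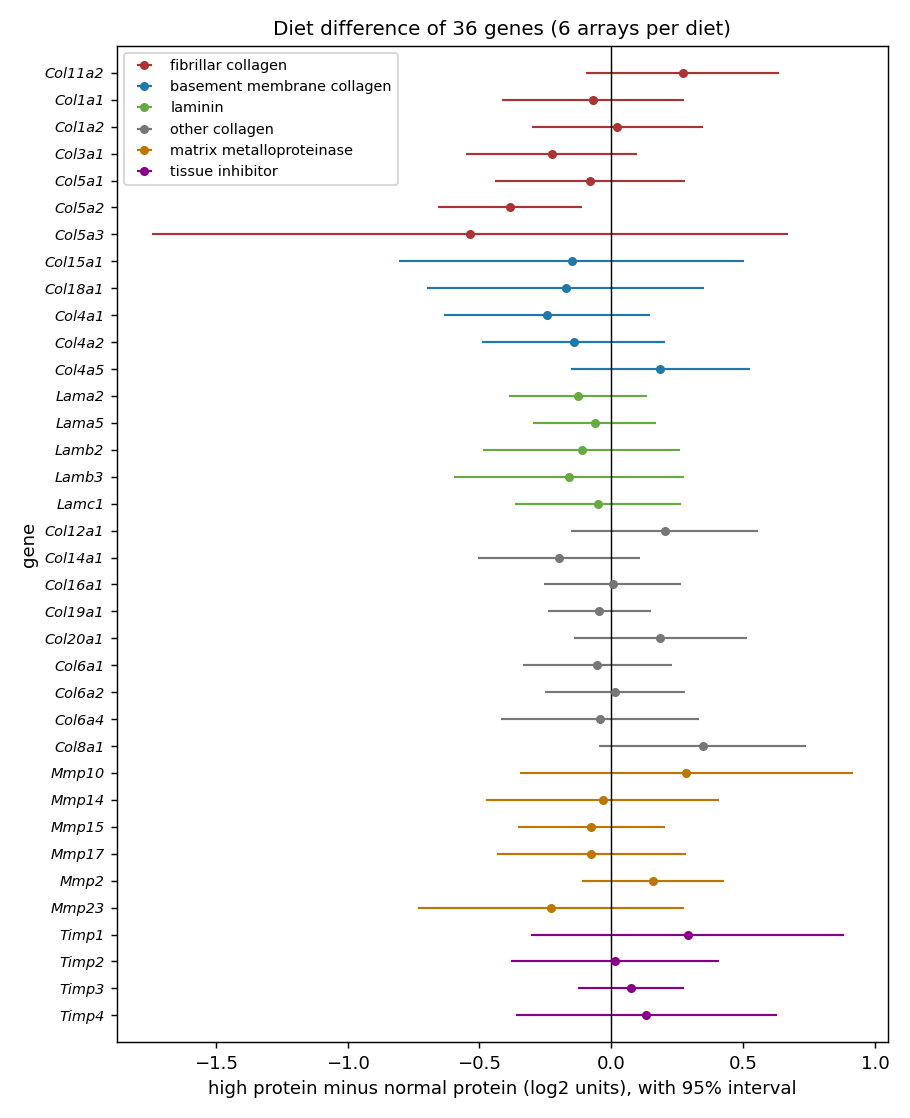
Points give the difference in mean normalized log2 intensity, high protein minus normal protein, for 36 of the 37 genes, with 6 arrays per diet, coloured by class; bars are 95% confidence intervals from the limma fit. Only the interval of Col5a2, from -0.66 to -0.11, leaves out 0 (unadjusted), and that of Col5a3 is the widest.

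Among the fibrillar collagens, the difference was below 0 in 5 of 7 genes, with a median of -0.08. Col5a2 encodes the alpha 2 chain of type V collagen, which joins type I collagen fibrils and limits their width. Its lowest, median and highest values were 9.11, 9.37 and 9.72 for normal protein and 8.63, 9.11 and 9.27 for high protein. All 6 high-protein arrays lay below the normal-protein mean, but the groups overlapped, since NP3 was no higher than several high-protein arrays. The means were 9.40 ± 0.21 and 9.02 ± 0.25 (SD, n = 6 each), a difference of -0.38 ± 0.13 (SE), with an adjusted p of 0.69 and an unadjusted p of 0.0095 in the limma fit. The gene's second probe differed by -0.22 ± 0.14 (SE; unadjusted p of 0.14 in limma). Within the slides the difference was -0.23, -0.62 and -0.30, and with any 1 array left out it lay between -0.44 and -0.31.

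**Figure D3:**
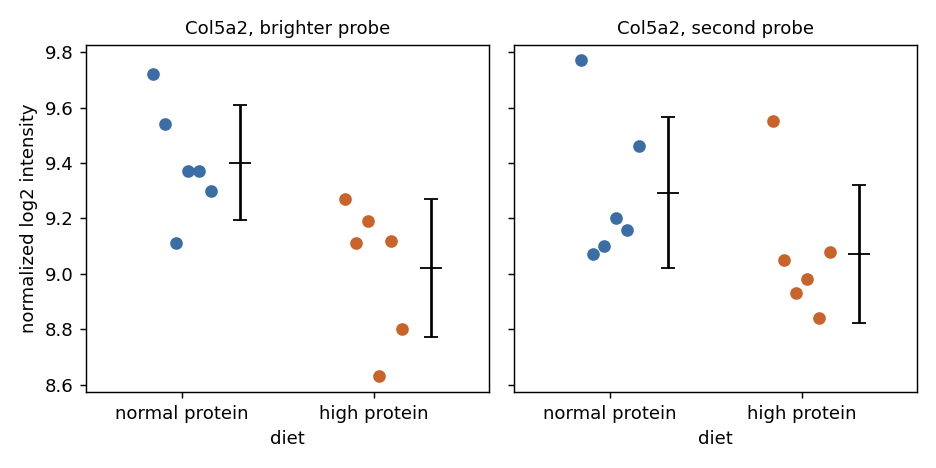
Normalized log2 intensity of Col5a2 on its 2 tested probes, with 1 point per array and, beside each group, the mean and SD over 6 arrays. On the brighter probe the high-protein means lie lower by 0.38, and on the second probe by 0.22, and the groups overlap on both.

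The bases before the annotated start of Col5a2, the gene with the smallest unadjusted p, are shown for reference (RefSeq, build GRCr8, chr9:55090152-55090401, minus strand). Of the motifs searched (the TATA box as TATAAA, the CCAAT box, the GC box as GGGCGG and the AP-1 site as TGANTCA, each read from both strands), none matched these 250 bases, so no letter is in capitals.
Col5a2: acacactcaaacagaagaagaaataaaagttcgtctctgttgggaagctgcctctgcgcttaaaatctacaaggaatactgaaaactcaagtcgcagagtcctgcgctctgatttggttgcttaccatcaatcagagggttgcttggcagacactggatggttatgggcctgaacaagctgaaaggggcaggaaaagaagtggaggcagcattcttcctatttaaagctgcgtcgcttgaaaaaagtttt

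Col1a2, which encodes the alpha 2 chain of type I collagen, had lowest, median and highest values of 11.94, 12.51 and 13.05 for normal protein and 12.40, 12.46 and 12.80 for high protein. The normal-protein arrays held both extremes, NP6 at the bottom and NP1 at the top, and the groups overlapped fully. The difference was 0.02 ± 0.15 (SE; adjusted p of 0.97 in limma). Col1a1 and Col3a1, the partner chain and the type III chain, differed by -0.07 and -0.23. Without NP6 they differed by -0.17 and -0.30, and Col1a2 by -0.09.

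Col5a3 encodes the third chain of type V collagen, and its values were set by 1 array. They were 7.52, 7.70 and 11.39 for normal protein (lowest, median and highest) and 7.41, 7.74 and 8.18 for high protein. NP6 alone was high, 12.9-fold above the mean of the other normal-protein arrays, and the remaining values of the diets overlapped. The difference was -0.54 ± 0.56 (SE; adjusted p of 0.83 in limma) and 0.08 without NP6.

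Among the basement membrane genes, 9 of 11 differences were below 0, with a median of -0.13; without NP6 these were 6 of 11 and -0.02, against a median of 0.00460 over all tested genes. Col4a1 encodes the alpha 1 chain of type IV collagen, the network former of every basement membrane. It measured 10.31, 10.50 and 11.44 for normal protein (lowest, median and highest) and 10.06, 10.41 and 10.74 for high protein. NP6 was the only array above 11 and HP4 was the lowest, and the rest of the groups overlapped. The difference was -0.25 ± 0.18 (SE; adjusted p of 0.78 in limma), and -0.09 without NP6.

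Col4a2 encodes the alpha 2 chain, which assembles with the alpha 1 chain. Its values were 6.49, 6.80 and 7.50 for normal protein and 6.49, 6.72 and 7.04 for high protein. NP6 was again the highest array, and both groups reached the same low level. The difference was -0.14 ± 0.16 (SE; adjusted p of 0.84 in limma), and -0.02 without NP6. Col4a5, of the type IV chains found in a restricted set of basement membranes, differed by 0.19 and was highest in HP6. The type IV chains Col4a3 and Col4a4 had no spot flagged as found.

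Col4a1 and Col4a2 lie head to head, and the bases between their annotated starts are shown because both genes were highest on the same array. In RefSeq, build GRCr8, 76 bases separate the starts (chr16:84885521-84885596, plus strand, in the direction of Col4a1). Capitals mark a GC box, read here from the opposite strand as CCGCCC. A GC box was present in the 250 bases before the start of 18 of the 27 tested genes that matched the promoter table, against 30.5% of 33469 promoters of the same length. A CCAAT box was present in 9 of the 27, against 34% of all promoters. These matches are descriptions of letters and do not show that a factor binds.
Col4a2 to Col4a1 interval: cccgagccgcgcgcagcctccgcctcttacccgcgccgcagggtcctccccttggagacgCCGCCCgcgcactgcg

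Among the laminins, 5 of 6 differences were below 0, and 3 of 6 without NP6. Lamc1 encodes the gamma 1 chain, shared by most laminins, and had values of 9.41, 9.56 and 10.21 for normal protein and 9.35, 9.58 and 9.91 for high protein. NP6 was the highest and HP3 the next, with full overlap of the remaining arrays. The difference was -0.05 ± 0.15 (SE; adjusted p of 0.94 in limma), and 0.06 without NP6. Lama2, whose alpha 2 chain belongs to the laminin of muscle and nerve, had values of 6.63, 6.67 and 7.16 for normal protein and 6.37, 6.60 and 6.99 for high protein. Its probe was flagged as found on 8 arrays, and the difference was -0.13 ± 0.12 (SE; adjusted p of 0.81 in limma), and -0.05 without NP6. Lamb3, the beta 3 chain of a laminin made by epithelial cells, differed by -0.16 and was lowest in HP3 (7.99).

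Of the other collagens, 5 of 9 lay above 0 and 4 below. Col6a2, a chain of the beaded-filament collagen VI, measured 12.13, 12.58 and 12.95 for normal protein and 12.41, 12.58 and 12.73 for high protein, with the normal-protein arrays again holding both extremes. Its difference was 0.01 ± 0.12 (SE; adjusted p of 0.98 in limma). Col8a1, a network-forming collagen of vessel walls, measured 6.44, 6.60 and 6.76 for normal protein and 6.54, 6.77 and 7.82 for high protein. HP6 lay far above the remaining arrays and HP1 (7.08) next, and HP3 (6.80) lay just above the highest normal-protein array. The other high-protein arrays overlapped the controls. The difference was 0.35 ± 0.18 (SE; adjusted p of 0.73 in limma) and 0.17 without HP6; the probe was flagged as found on 8 arrays.

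Of the metalloproteinases, 4 of 6 differences lay below 0. Mmp15 had values of 10.95, 11.16 and 11.55 for normal protein and 10.90, 11.08 and 11.41 for high protein, with a difference of -0.08 ± 0.13 (SE; adjusted p of 0.90 in limma). Mmp2 had values of 10.46, 10.76 and 10.99 for normal protein and 10.48, 10.99 and 11.15 for high protein, with a difference of 0.16 ± 0.12 (SE; adjusted p of 0.79 in limma). For both genes the groups overlapped over most of their range. Mmp10 had values of 6.92, 7.27 and 7.51 for normal protein and 6.66, 7.23 and 8.58 for high protein. Only HP3 (8.42) and HP4 (8.58) were high, and the other 10 arrays lay between 6.66 and 7.51. The difference was 0.28 ± 0.29 (SE; adjusted p of 0.83 in limma); it was 0.11 without HP3, 0.08 without HP4 and 0.46 without HP5.

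The bases before the start of Mmp10 are shown because 2 of the motifs searched lie close together there (RefSeq, build GRCr8, chr8:12974457-12974706, plus strand). Capitals mark TATA boxes, one of them 33 bases before the start, and an AP-1 site, TGAGTCA, which begins 61 bases before it. A further pair of TATA matches, one on each strand, overlap further upstream. An AP-1 site was found in 2 of the 27 matched genes, Mmp10 and Col6a1, against 6.34% of all promoters, and a TATA box in 2, Mmp10 and Col1a2, against 12.9%.
Mmp10: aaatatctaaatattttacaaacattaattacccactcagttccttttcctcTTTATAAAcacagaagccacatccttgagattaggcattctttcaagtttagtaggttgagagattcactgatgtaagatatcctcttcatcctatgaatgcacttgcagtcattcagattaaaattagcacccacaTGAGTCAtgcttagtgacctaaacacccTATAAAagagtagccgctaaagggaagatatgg

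All 4 TIMP differences lay above 0, between 0.01 and 0.29; without NP6, or with the arrays scaled to their 75th percentile, 3 of 4 did. Timp2 measured 12.52, 12.69 and 13.17 for normal protein and 12.24, 12.93 and 13.19 for high protein, with a difference of 0.01 ± 0.18 (SE; adjusted p of 0.99 in limma). Timp1 measured 9.70, 10.07 and 10.86 for normal protein and 9.41, 10.55 and 11.11 for high protein. High-protein arrays held both its lowest and its highest value. The difference was 0.29 ± 0.27 (SE; adjusted p of 0.81 in limma), with 0.50 without HP3 and 0.16 without HP6.

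Against the colon position score, with diet in the model, 4 of the 37 genes passed the threshold (limma), beside 621 of all 10439 genes (5.95%). Of the 4, Col20a1 entered the analysis only through arrays with a high score, so its call is no support; 3 of the other 36 genes passed. Of these, Timp1 and Timp2 rose towards high, distal scores, beside 3.41% of all tested genes, and Col4a2 fell, beside 2.54%. The slope is the change in log2 intensity per log2 unit of the score. The labels give no position along the colon, and the score is itself a measurement from these arrays.

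Timp1 encodes a secreted inhibitor of most metalloproteinases. On the 6 arrays with a score above 4 it measured 10.86 in NP1, 10.35 in NP2, 10.64 in HP1, 10.91 in HP2, 10.46 in HP5 and 11.11 in HP6. On the other 6 it measured 9.89 in NP3, 9.70 in NP4, 10.25 in NP5, 9.83 in NP6, 9.41 in HP3 and 10.09 in HP4. Every array of the distal-score set lay above every other array, a separation also seen in 3.57% of all tested genes. The slope was 0.11 ± 0.02 (SE, 12 arrays), with an adjusted p of 0.0065 in limma. It was positive in each slide (0.26, 0.11 and 0.10) and within each diet (0.09 on normal and 0.12 on high protein). The call held with 11 of the 12 arrays left out in turn; without HP3 the slope was 0.09 and the adjusted p 0.059 in limma. It did not hold with the fibroblast marker score as a covariate (slope 0.11, adjusted p of 0.12 in limma), under which the count over all genes was 114. With the replicate number as a block the call was also lost (slope 0.096, adjusted p of 0.10 in limma).

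The bases before the start of Timp1 are shown because it had the smallest adjusted p against the score among the 37 genes (RefSeq, build GRCr8, chrX:3771123-3771372, minus strand). Capitals mark a GC box, read as CCGCCC, which begins 142 bases before the start. The window lies within the annotated span of the gene, so another annotated transcript starts further upstream.
Timp1: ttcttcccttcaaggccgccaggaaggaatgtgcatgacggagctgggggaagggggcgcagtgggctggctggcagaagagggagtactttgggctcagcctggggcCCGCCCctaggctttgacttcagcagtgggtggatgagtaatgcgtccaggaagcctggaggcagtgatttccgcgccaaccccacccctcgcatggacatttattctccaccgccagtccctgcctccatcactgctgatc

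Timp2, an inhibitor that also takes part in activating pro-Mmp2 at the cell surface, rose by 0.06 ± 0.02 (SE) per unit of the score, with an adjusted p of 0.041 in limma. It was lowest in HP3 (12.24) and HP4 (12.31) and highest in HP2 (13.19) and NP1 (13.17), and the arrays with a score above 4 overlapped the others. The slope was positive in each slide and each diet (0.02 to 0.18). The call was lost with slide as a block (adjusted p of 0.096 in limma) and without NP1, NP4, NP5, HP1, HP2, HP3, HP4 or HP6, with adjusted p-values of up to 0.20 in limma.

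Col20a1, a little-studied fibril-associated collagen, is given as a description. Its spots were flagged as found on all 6 arrays with a score above 4 and on none of the others, so it had to differ between them. It measured 6.66 to 7.21 on the former and 6.28 to 6.57 on the latter, where the spots were not above the found limit and the level is only a bound.

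Col4a2 fell by 0.06 ± 0.01 (SE) on the log2 scale per unit of the score, with an adjusted p of 0.035 in limma. NP6 (7.50), NP3 (7.06), HP3 (7.04) and NP4 (6.94) were the highest arrays, and HP2 and NP2 (each 6.49) the lowest. The slope was negative in each slide and each diet. Without NP6 it was -0.04, with an adjusted p of 0.12 in limma; the call was also lost without NP1, NP2, HP2, HP3, HP5 or HP6, and with slide as a block (adjusted p of 0.063 in limma). Col4a1, its partner chain, had a slope of -0.02 ± 0.02 (SE), and 0.01 without NP6, neither past the threshold in limma.

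Without NP6, 5 of the 36 genes other than Col20a1 were called, beside 5.28% of all tested genes: Timp1, Timp2 and Timp4 rose, and Mmp10 and Col6a4 fell. Timp4 was 7.71 in NP6, its highest value, while the other 5 arrays with a score of 2.40 or less lay between 6.51 and 6.66 and the distal-score arrays between 6.997 and 7.54. Its slope was 0.04 ± 0.03 (SE; adjusted p of 0.49 in limma) with NP6 and 0.09 ± 0.01 (SE; adjusted p of 0.0019 in limma) without it. The Timp4 probe was flagged as found on all 6 arrays with a score above 4 but on only 4 of the other 6. On the rest its level is only a bound. For Mmp10 the slope was -0.08 with NP6 and -0.13 without it, where the adjusted p was 0.0087 in limma. Its high values were those of HP3 and HP4, both of low score and on the same diet, and the slope within the normal-protein arrays was 0.03. Col6a4 was highest in HP3 (7.74), NP1 (7.50) and HP4 (7.46). Its slope was -0.08 within the high-protein arrays and 0.01 within the normal-protein arrays. Without HP3, none of the 37 genes was called and 338 of all tested genes were.

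**Figure D4:**
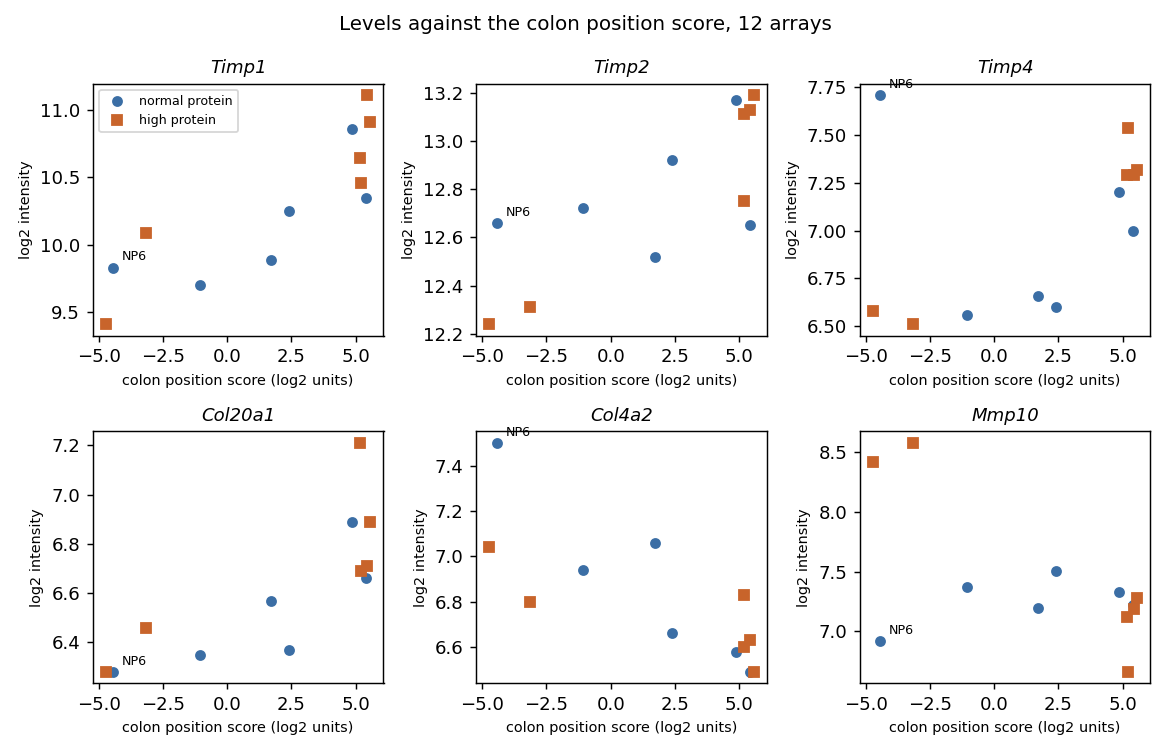
Normalized log2 intensity of 6 genes against the colon position score (Hoxb13 less the average of Hoxb6 and Hoxb7, in log2 units), with 1 point per array and NP6 labelled. Timp1 and Col20a1 are higher on all 6 arrays at scores from 4.87 to 5.57 than on the others, Timp4 is so in all but NP6, Col20a1 was flagged as found only on those 6, and Mmp10 is high only in HP3 and HP4.

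NP6 is the array whose collagens stood farthest apart. Measured there against the highest of the other 11 arrays, Col5a3 was 11.39 against 8.18, Col15a1 11.80 against 10.69, and Mmp23 8.81 against 7.77. These 3 genes (8.11% of the 37) exceeded every other array by over 1 log2 unit, as did 139 of all tested genes (1.33%). Col15a1 encodes a basement membrane collagen of the type that also carries an endostatin-like fragment.

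The other basement membrane genes that were highest in NP6 exceeded the other arrays by less. Col4a1 was 11.44 against at most 10.76, Lamb2 8.68 against 7.995, Col18a1 9.33 against 9.001, and Lamc1 10.21 against 9.91. NP6 also held the lowest value of 6 of the 37 genes, while 18.2% of all tested genes were lowest there. The low values are therefore given as a description. Several fibre-forming and filament collagens were among them. Col1a2 was 11.94 against at least 12.40 elsewhere, Col12a1 7.96 against at least 8.58, Col6a2 12.13 against at least 12.40, and Col1a1 10.79 against at least 10.92. Of the 7 fibrillar collagens, 2 were lowest in NP6 and 1, Col5a3, was highest. Of the 11 basement membrane genes, 7 were highest there and 1 was lowest.

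Markers of other cell types moved with NP6, those of adipocytes by the most. Adiponectin (Adipoq) was 13.28 there against 5.99 to 9.36 on the other arrays, resistin (Retn) 13.42 against 5.87 to 8.46, and Fabp4 13.14 against 6.93 to 9.35. All 6 tested markers of that list were highest in NP6. The endothelial score was 8.56 against 7.61 to 8.01, with 6 of 7 tested genes highest in NP6, and the glia and neuron score 8.27 against 6.91 to 7.55, with 3 of 6. The fibroblast score was 8.97 against 8.42 to 8.95, barely above HP3, and its genes went both ways. In NP6, 6 of 12 tested genes were highest, while Pdgfra (8.76), Fbln1 (6.92) and Tcf21 (7.22) were at their lowest. Their part in the collagen values was not tested. With the adipocyte score as a covariate, added after the values had been seen, Timp1, Timp2, Timp4 and Mmp10 passed the threshold against position in limma, while Col4a2 (adjusted p of 0.10) and Col20a1 (0.053) did not.

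**Figure D5:**
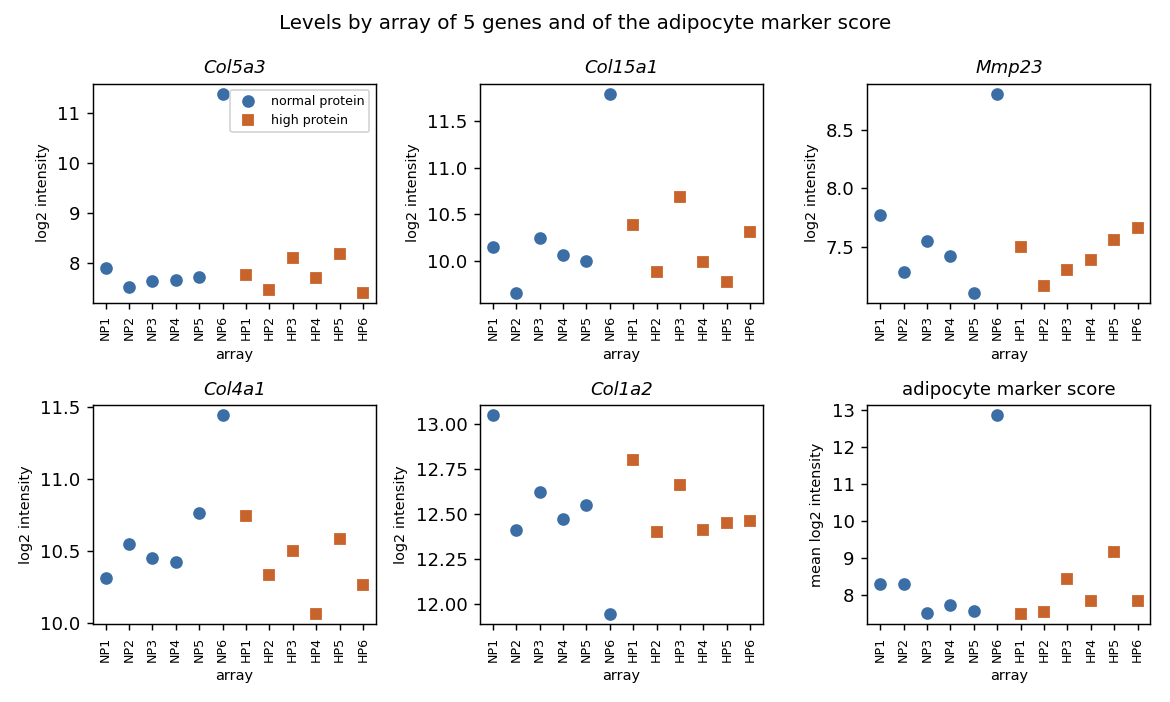
Normalized log2 intensity on each of the 12 arrays for Col5a3, Col15a1, Mmp23, Col4a1 and Col1a2, and the mean log2 intensity of 6 adipocyte markers. NP6 is the highest array in 5 panels and the lowest in that of Col1a2, at 11.94.

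The genes that make, hold and turn over these proteins showed no diet call either. In the list of collagen maturation 15 of 19 tested genes lay below 0 (median -0.07), and Serpinh1, the collagen-specific chaperone Hsp47, lay lower by 0.51 (-0.51 ± 0.15, SE; adjusted p of 0.68 and unadjusted p of 0.0050 in limma). Serpinh1 was highest in NP6, at 11.79 against at most 11.46 elsewhere. Ppib, a prolyl isomerase of the same compartment, differed by -0.19. Of the other proteases and inhibitors, 12 of 20 lay below 0, with Plau, the urokinase that activates plasminogen, at -0.32 ± 0.10 (SE; adjusted p of 0.68 in limma). The matrix receptors had 8 of 13 below 0 (median -0.07), other basement membrane genes 4 of 5 (-0.10), other interstitial matrix genes 11 of 24 (median 0.02), and TGF-beta signalling genes 5 of 9 (-0.01). Without NP6 the other basement membrane genes had 2 of 5 below 0 (median 0.04). The counts below 0 were then 14 of 19 for collagen maturation and 13 of 20 for the other proteases and inhibitors. They were 9 of 13 for matrix receptors, 11 of 24 for other interstitial matrix and 5 of 9 for TGF-beta signalling. All these lists were chosen with earlier results of these data known.

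Against the position score, 6 of the 90 tested genes of these lists were called (6.67%), near the 5.95% of all tested genes, and 4 without NP6; the called genes are named as a description. Plod2, a lysyl hydroxylase that shapes collagen crosslinks, rose by 0.05 per unit (1 of 19), the hemidesmosome integrin Itgb4 by 0.07 (1 of 13), the meprin subunit Mep1b by 0.21 and the matricellular gene Ccn2 by 0.06 (1 of 9). Mgp, the matrix Gla protein, fell by 0.07 per unit (1 of 24) and Plat, tissue plasminogen activator, fell by 0.06, so that 2 of 20 in its list were called. None of the 5 other basement membrane genes was called. Without NP6, Plod2, Itgb4 and Mgp were no longer called. The 1 call then left among the other interstitial matrix genes was a rise.

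Marker lists of the cells that make matrix differed between the diets by amounts that did not pass for any gene. Of the smooth muscle markers, 19 of 19 were lower with the high-protein diet (17 of 19 with the arrays scaled to their 75th percentile). Their mean level was 11.06 to 11.57 on normal and 10.30 to 11.35 on high protein. The 10.30 was that of HP4 alone, and the other high-protein arrays lay between 10.98 and 11.35. Fibroblast markers lay lower in 9 of 12 (8.64 to 8.97 and 8.42 to 8.95), 5 of 12 without NP6. Macrophage markers lay lower in 10 of 11 (9.202 to 9.69 and 8.82 to 9.35), and epithelial markers in 11 of 13. With the smooth muscle score as a covariate the diet difference of Col5a2 was -0.33, and with the fibroblast score it was -0.41. With neither it was -0.38. The part of the macrophage and epithelial markers in that value was not tested.

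The relation of 7 genes (Col5a2 and the brightest of each class) to the smooth muscle and fibroblast scores was computed over the 12 arrays, 14 relations in all. None passed an adjusted p of 0.05 in the permutation tests. The closest was Lamc1 with the fibroblast score (Pearson r of 0.65, permutation p of 0.019, adjusted p of 0.27; Spearman rho of 0.69, permutation p of 0.015), and r was 0.50 without HP5 and HP2, the 2 arrays farthest from the median score. For Col5a2 and the smooth muscle score, r was 0.50 (permutation p of 0.11), and without HP4 and NP5 it was -0.28, so that the relation rested on those arrays.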

How the data were processed

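Per the file headers, 12 single-colour Agilent rat arrays were scanned at 532 nm and measured with GenePix Pro 6.1.0.4; the deposited spot intensities, the percent of saturated pixels and the spot flags that the authors deposited were not normalized. The authors also deposited a table of log2 values (RMA, per the submitters' processing notes), used only as an alternative. Its probe names are displaced by 1 row (median correlation with the scanner values per array 0.996 after moving the rows, 0.013 as given); background correction and centring of that table: not given in the sources used here.

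Spot means were corrected with limma 3.58.1 (R 4.3.3; normexp on the median local background, offset 50) and quantile normalized, and spots of a probe were averaged. Probes flagged 100 on 6 or more arrays were tested, taking the brightest per gene. Names came from RefSeq accessions or the array's own gene name; 1467 tested probes without a name were left out. Fits used lmFit and eBayes, with diet alone or with diet and position score, and Benjamini-Hochberg adjustment over 10439 genes at 0.05. Relations used 1e+05 permutations (two-sided). The scripts were tested on simulated data. The number of arrays limits the precision. No member spot was saturated on the arrays.

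The genes and lists were chosen with earlier results of these data known. Genes named with full values were Col5a2 and, in each class, those with the highest mean, the smallest diet p and the largest position statistic; of the other lists, up to 2 genes per fit. Slide (the same grouping as scan time), the replicate number and other settings were tried as alternatives. In their deviations, same-numbered samples of the diets correlated by 0.12 on average and different-numbered samples by -0.02. This does not decide whether the numbers are pairs, and the main fits took none. Of the 37 genes, 1 is counted in the totals but not reported here on its own.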

Additional observations from a re-analysis of the deposited data

Results flagged for a closer look

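Within a diet, 1 array lay far from the other 5, by the gap to its nearest neighbour over the range of the group (above Dixon's 95% limit for 6 samples), for 13 of 104 groups looked at; chance flags about 1 in 20 groups, here 5.2. Of the 13, 8 were values of NP6. The adipocyte list was added because of NP6; without it there were 12 of 102 groups, 7 of them values of NP6, beside 5.1 by chance. Among the 37 genes these were Col5a3 at 11.39 (nearest other 7.91), Col15a1 at 11.80 (nearest 10.25), Lama2 at 7.16 (nearest 6.72), Lamc1 at 10.21 (nearest 9.70) and Col12a1, low, at 7.96 (nearest 8.62). Lama5, a chain of epithelial basement membrane laminins, was 8.55 in HP3 (nearest 8.10).

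Among the marker and pathway scores, NP6 was high for the adipocyte list at 12.86, the endothelial list at 8.56 and the glia and neuron list at 8.27. HP3 was also high for the endothelial list among the high-protein arrays, at 8.01. The smooth muscle score was low in HP4, at 10.30, the macrophage score high in NP1, at 9.69, and the matrix receptor score low in NP2, at 8.01.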

How the results depend on the processing

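Under every alternative listed the diet comparison called 0 of the 37 genes, and over all genes it called 0 except within slide 3, where 1 gene passed. Left out in turn, no array gave a diet call among the 37 genes. The differences of several genes are near 0 and changed sign with 1 array left out: Col1a2 ranged from -0.090 to 0.13, Col5a3 from -0.69 to 0.080, Lamc1 from -0.11 to 0.061, Col6a2 from -0.073 to 0.089 and Timp2 from -0.066 to 0.12. Signs also changed for Lamc1 with probes averaged (0.048), for Col6a2 and Timp2 in the authors' table (-0.0017 and -0.057), and for Col6a2 and Timp2 with position as a covariate (-0.0085 and -0.033). With the fibroblast score as a covariate the differences were Col4a2 0.10, Lamc1 0.17, Lama2 0.027, Col6a2 -0.052, Timp2 -0.15 and Timp1 -0.076; with the adipocyte score, added after the values were seen, they were Col1a2 -0.055, Lamc1 0.023, Col6a2 -0.051 and Timp2 -0.014. Within slide 1 they were Col1a2 -0.24, Col4a1 0.16, Lamc1 0.080, Lama2 0.061, Col6a2 -0.050 and Mmp10 -0.066; within slide 2, Timp2 -0.069; and within slide 3, Col5a3 0.55, Col4a1 0.052, Col4a2 0.098, Lamc1 0.070, Col6a2 -0.069, Col20a1 -0.024, Mmp15 0.11, Timp2 -0.19 and Timp1 -0.092. Among the relations, Pearson r became -0.23 for Col1a2 with the fibroblast score under 75th percentile scaling, and -0.088 for Col5a2 as residuals from the diet means. The cause of these changes was not tested.

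The position calls moved more. From 4 of the 37 genes (Col20a1 among them) and 621 of all genes, they became 2 with no filter on flags, 1 with probes found on all 12 arrays (of 26 genes tested, with the same score, since Hoxb13 did not pass that filter), 1 and 366 with slide as a block, 0 and 114 with the fibroblast score, 2 with Hoxb13 alone, and 393 over all genes in the authors' table. With 1 array left out the counts lay between 0 (without HP3) and 6 (without NP6) for the 37 genes and between 338 (without HP3) and 598 over all genes. In a fit with the replicate block, 0 of the 37 genes and 259 of all genes passed. The Timp1 slope was then 0.096 (adjusted p of 0.10 in limma). Same-numbered samples correlated between -0.11 and 0.40 in their deviations, and 5 of 12 arrays correlated best with their own number. The main fits did not take the numbers as pairs. The slopes of Timp1, Timp2, Col20a1 and Col4a2 kept their direction under every setting tried. Probes found on 8 or fewer arrays (Col20a1, Col11a2, Col8a1, Lama2, Timp3) and 6 arrays per diet limit what could be detected.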
